A study of Mus musculus with 6 samples.

Results

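The brush border peptidases are enzymes anchored in the luminal membrane of intestinal epithelial cells, and 9 genes encoding them were examined in the colon of NHE3-deficient mice. NHE3, the product of Slc9a3, exchanges sodium for protons at the apical membrane. The genes were Anpep, Enpep, Mep1a, Mep1b, Dpp4, Ace, Mme, Xpnpep2 and Ggt1. Members were all probe sets whose platform annotation names exactly 1 gene, that gene being one of these. This gave 14 probe sets for 8 genes, out of 18194 genes with such a probe set on the array. Ggt1 has no probe set that names it alone and was not analysed here. The study compared 3 wild-type (NHE3+/+) with 3 NHE3-deficient (NHE3-/-) samples of total RNA from whole colon, each on its own Affymetrix MOE430 2.0 array. All came from mice of 6 to 8 weeks, untreated, the wild types being littermates. The labels name neither the disrupted part of the gene nor the strain, and do not say whether each array held 1 animal. A p-value here thus reflects only how far these samples scatter, and part of that scatter may be technical.

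Digestion of protein ends at the epithelial surface, where peptidases trim short peptides to single amino acids and to pieces small enough for the transporters beside them. Aminopeptidases remove residues from the amino end, meprins cut inside the chain, and other members act on bonds next to proline or take off pairs of residues. The same enzymes also cut hormones and other signalling peptides, and many are found outside the epithelium, on vessels, immune cells or stromal cells. They are best known from the small intestine and the kidney, and the colon carries some of them.

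The values are probe set signals in arbitrary units, on a linear scale. Their trimmed mean, averaged over the arrays, was 500 as read from the values. Differences are given as log2 fold changes of NHE3-deficient over wild type on log2(signal + 31.4), with limma's standard error (SE), and a probe set is called where its adjusted p is under 0.05. Of 27022 probe sets tested, 4.97% were called higher and 6.24% lower, and their median log2 fold change was -0.10. Counts at an unadjusted p under 0.05 are also given below. The share of all probe sets at that threshold was not determined and cannot be smaller than the shares called. Those counts are therefore a description and are not read as an excess in any list. Arrays of 1 genotype correlated at 0.965 to 0.973 and arrays of different genotypes at 0.932 to 0.959. The brighter Slc9a3 probe set read 5647 to 6669 in wild type and 3665 to 5970 in NHE3-deficient colon and was not called (log2 fold change -0.42, SE 0.16, adjusted p = 0.120). The dimmer read 107.8 to 345.6 and 264.9 to 608.7 and was not called either (0.76, SE 0.39, adjusted p = 0.230). A probe outside the disrupted part would check nothing. Of the Xist probe sets 1, for an RNA of female cells, had a signal of 2639 and 1929 on NHE3-deficient arrays 1 and 2 and at most 12.3 on the 4 other arrays. The Y-linked Kdm5d read 341.3 and 405.5 on those arrays and 654.2 to 783.6 on the others. Eif2s3y, also Y-linked, read 932.6 and 1088 there and 1355 to 1809 elsewhere, and Uty 338.9 and 316.8 against 240.6 to 450.6. The Xist signal was thus high only on NHE3-deficient arrays 1 and 2, where Y-linked signals also remained. Sex is therefore partly confounded with genotype, and its part in the differences was not tested.

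In all, 5 of the 8 measured peptidase genes had a probe set that was higher in NHE3-deficient colon. These were Anpep, Enpep, Ace, Mep1b and Dpp4, in order of their log2 fold changes, which ran from 3.08 down to 0.49. No member probe set was lower at the limma threshold, and 0 were lower at an unadjusted p under 0.05. All 14 member probe sets passed the filter on low signal, and 5 of them were called higher, beside 4.97% of all probe sets tested. Counted by the brightest probe set of each gene, 5 of 8 genes were higher and 0 lower, beside 6.38% and 7.51% of 12553 genes tested. The median over the 8 genes was 0.71. All 3 NHE3-deficient arrays lay above all 3 wild-type arrays for 7 of the 14 probe sets, beside 12.2% of all tested. In whole tissue, more cells with a transcript and more transcript per cell cannot be told apart.

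**Figure D1:**
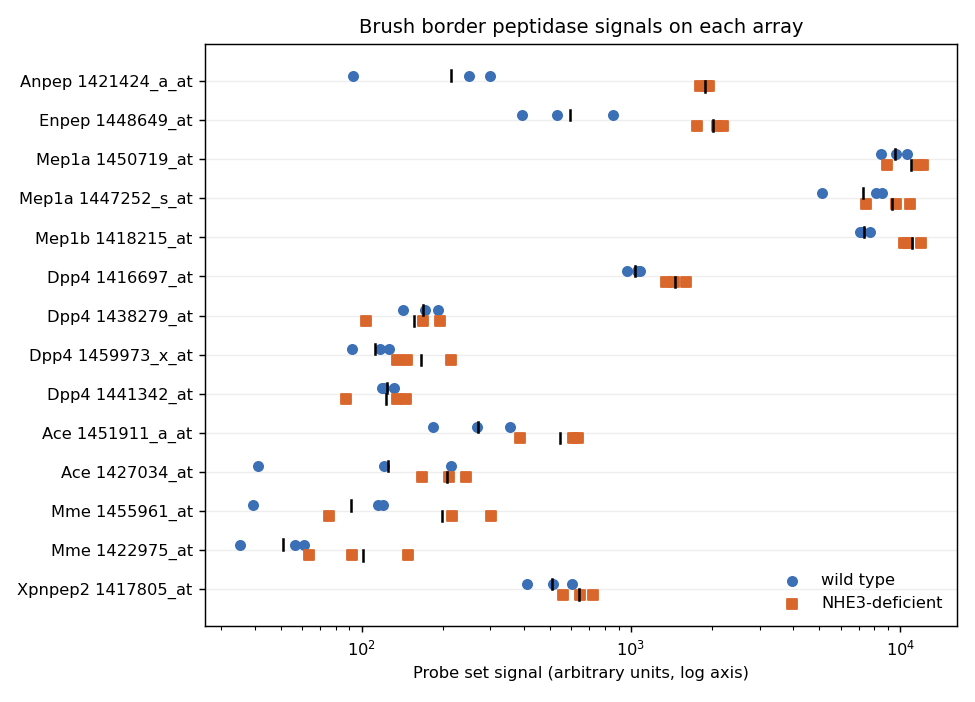
Signals of the 14 member probe sets on each array, on a log axis in arbitrary units, with 3 wild-type arrays as circles, 3 NHE3-deficient arrays as squares and group means as short vertical lines. The groups lie farthest apart for Anpep, at 93.1 to 300.6 against 1802 to 1945, and overlap for both Mep1a probe sets. Signals of different probe sets depend on the probes and are not comparable between rows.

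Anpep, aminopeptidase N or CD13, which removes neutral residues from the amino end of peptides, changed most. Its single probe set had signals of 93.1, 250.5 and 300.6 in wild type and 1802, 1945 and 1913 in NHE3-deficient colon. The groups were far apart, and the wild-type arrays spread more (coefficient of variation 50.4%) than the NHE3-deficient arrays (3.98%). The means were 215 ± 108 and 1887 ± 75.1 (SD, n = 3 each), an 8.79-fold ratio. The log2 fold change was 3.08 (SE 0.29, 95% interval 2.43 to 3.73, adjusted p = 0.000129).

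Enpep, aminopeptidase A, removes acidic residues from the amino end and turns angiotensin II into angiotensin III. It read 528.8, 394.4 and 856.1 in wild type and 1758, 2093 and 2194 in NHE3-deficient colon. Every NHE3-deficient array was above the highest wild-type array, and the highest wild-type array was the same one, number 3, as for Anpep. The means of 593 ± 237 and 2015 ± 228 (SD, n = 3 each) gave a log2 fold change of 1.77 (SE 0.23, 95% interval 1.28 to 2.27, adjusted p = 0.000791). Anpep and Enpep belong to 1 family of zinc aminopeptidases. The log2 difference of Anpep minus Enpep within an array went from -1.39 ± 0.79 to -0.09 ± 0.12 (SD, n = 3 each), a shift of 1.31 that separated the groups. The exact permutation test gave p = 0.1 (two-sided), below which a design of 3 against 3 cannot go, and 0.2 when adjusted over the 2 such pairs tested.

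The meprins are zinc endopeptidases of the astacin family. Meprin beta, encoded by Mep1b, is anchored in the membrane and cuts beside acidic residues, while meprin alpha, encoded by Mep1a, can be shed into the lumen. Mep1b read 7099, 7695 and 7181 in wild type and 11964, 10696 and 10311 in NHE3-deficient colon. The ranges did not overlap and both groups were tight, with coefficients of variation of 4.41% and 7.87%. The log2 fold change was 0.58 (SE 0.10, 95% interval 0.37 to 0.80, adjusted p = 0.00419).

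Mep1a was measured by a pair of probe sets, and neither passed the threshold. The brighter read 9643, 10573 and 8448 in wild type and 11633, 8925 and 12152 in NHE3-deficient colon, with NHE3-deficient array 2 inside the wild-type range. Its log2 fold change was 0.18 (SE 0.13, 95% interval -0.11 to 0.48, adjusted p = 0.406). The other, a set of the kind that can also read related transcripts (suffix s), gave 0.38 (SE 0.19, 95% interval -0.04 to 0.80, adjusted p = 0.228). The interval of the brighter set includes no change and overlaps that of Mep1b at its lower end. The within-array log2 difference of Mep1b minus Mep1a was -0.38 ± 0.12 and 0.02 ± 0.25 (SD, n = 3 each), a shift of 0.40 with overlapping groups (exact permutation test, two-sided p = 0.2, also 0.2 adjusted over the 2 pairs). The overlap was slight, the highest wild-type difference being -0.2336 and the lowest NHE3-deficient one -0.2364. Since this test cannot go below 0.1 with 3 against 3 arrays, it does not decide whether the meprins differed.

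Dpp4 and Xpnpep2 encode the members that deal with proline. Dipeptidyl peptidase 4, or CD26, takes pairs of residues off peptides with proline or alanine next to the end, among them the incretins, and is also found on T cells. Its brightest probe set read 1081, 962.1 and 1055 in wild type and 1349, 1595 and 1442 in NHE3-deficient colon. The groups did not overlap, and the means of 1033 ± 62.4 and 1462 ± 124 (SD, n = 3 each) differed by a log2 fold change of 0.49 (SE 0.12, 95% interval 0.22 to 0.75, adjusted p = 0.0271). This call was lost in 8 of 16 alternative settings. Among them were the fits without wild-type array 2 (0.44, adjusted p = 0.0944), wild-type array 3 (0.50, 0.0584), NHE3-deficient array 2 (0.42, 0.0889) and NHE3-deficient array 3 (0.50, 0.0696), where each pair gives the log2 fold change and the adjusted p.

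The 3 further Dpp4 probe sets were dim, with means between 112 and 169 in both groups, and none was called. Their log2 fold changes were 0.45 (SE 0.25), -0.03 (SE 0.26) and -0.12 (SE 0.26). The last 2 of these turned positive under some scalings and array choices. The Dpp4 probe sets therefore did not all show the difference seen with the brightest, whose interval overlapped each of theirs.

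Xpnpep2, membrane-bound aminopeptidase P, which removes the residue in front of a proline, read 512.4, 410 and 601.2 in wild type and 720.9, 644.6 and 557.6 in NHE3-deficient colon. NHE3-deficient array 3 fell inside the wild-type range. The log2 fold change of 0.33 did not pass (SE 0.17, 95% interval -0.05 to 0.71, adjusted p = 0.249).

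Ace and Mme act on hormones as much as on food peptides. Angiotensin-converting enzyme, a product of endothelium and of some epithelia, releases pairs of residues from the carboxyl end and makes angiotensin II. The brighter Ace probe set read 184.4, 267.8 and 355.7 in wild type and 388.3, 607.5 and 632.9 in NHE3-deficient colon. NHE3-deficient array 1 stood only just above wild-type array 3, and the means were 269 ± 85.7 and 543 ± 134 (SD, n = 3 each). The log2 fold change was 0.94 (SE 0.25, 95% interval 0.40 to 1.49, adjusted p = 0.0333).

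The Ace call was lost in 7 of 16 settings, the log2 fold change staying between 0.73 and 1.18. It was lost without wild-type array 1 (0.73, adjusted p = 0.0839), wild-type array 2 (0.96, 0.0866), NHE3-deficient array 2 (0.85, 0.0974) and NHE3-deficient array 3 (0.82, 0.114). The dimmer Ace probe set, at 41.2 to 215 and 168.1 to 244.5, had a log2 fold change of 0.77 and was not called (SE 0.38, adjusted p = 0.225).

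Mme, neprilysin or CD10, a zinc endopeptidase that inactivates tachykinins and other peptides, was dim on both of its probe sets. The brighter read 119.7, 39.4 and 114.7 in wild type and 301.2, 217.3 and 75.3 in NHE3-deficient colon. NHE3-deficient arrays 1 and 2 were above the wild types and array 3 was not. Its log2 fold change was 0.83 (SE 0.43, 95% interval -0.12 to 1.79, adjusted p = 0.241), and with NHE3-deficient array 3 as the only NHE3-deficient array it was -0.12. The other probe set read 35.2 to 61.1 and 63.6 to 148.2, without overlap, and gave 0.65 (SE 0.34, adjusted p = 0.240). Both missed the threshold, and with intervals this wide these arrays do not settle whether Mme differed.

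**Figure D2:**
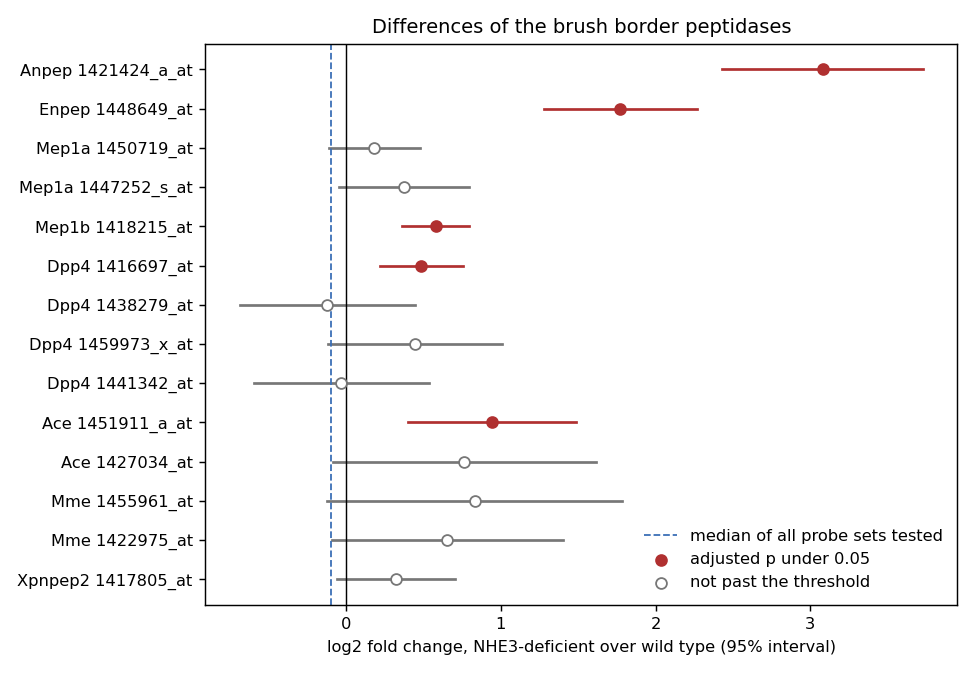
Log2 fold changes of the 14 member probe sets, NHE3-deficient over wild type, with 95% intervals from limma. Filled points have an adjusted p under 0.05, and the dashed line is the median of all 27022 probe sets tested, -0.10. Anpep at 3.08 and Enpep at 1.77 stand apart from Ace, Mep1b and Dpp4 at 0.49 to 0.94, and 2 of the Dpp4 probe sets lie just below 0.

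The promoters of called members are shown so that genes that rose together can be compared. Below are the 250 bases upstream of a RefSeq transcript start (build GRCm38.p6, each on the strand of its gene, 5′ to 3′) for Anpep, Enpep, Dpp4 and Ace, with Mep1a, which was not called, beside them. They lie at chr7:79848211-79848460 for Anpep, chr3:129332750-129332999 for Enpep, chr2:62412232-62412481 for Dpp4, and chr17:43502774-43503023 for Mep1a, all on the minus strand. That of Ace is chr11:105967698-105967947 on the plus strand, the first of 2 Ace starts in the table. Capitals mark any match, on either strand, to 6 short patterns, namely GTTAAT (part of HNF1 sites), TTTATG (CDX sites), CAAAGT (part of HNF4 sites), TGTTCT (part of steroid receptor sites), GGGCGG (the Sp1 GC box) and TATAAA (the TATA box).
Anpep: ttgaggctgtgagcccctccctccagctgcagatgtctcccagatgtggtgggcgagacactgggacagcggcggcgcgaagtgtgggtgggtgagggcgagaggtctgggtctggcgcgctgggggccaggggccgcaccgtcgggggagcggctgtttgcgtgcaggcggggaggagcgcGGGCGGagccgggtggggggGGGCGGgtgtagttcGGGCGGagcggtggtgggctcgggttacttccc
Enpep: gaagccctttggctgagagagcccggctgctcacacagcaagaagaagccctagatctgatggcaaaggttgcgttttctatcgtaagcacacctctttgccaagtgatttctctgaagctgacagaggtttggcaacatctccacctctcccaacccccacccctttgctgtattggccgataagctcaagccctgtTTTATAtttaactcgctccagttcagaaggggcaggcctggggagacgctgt
Dpp4: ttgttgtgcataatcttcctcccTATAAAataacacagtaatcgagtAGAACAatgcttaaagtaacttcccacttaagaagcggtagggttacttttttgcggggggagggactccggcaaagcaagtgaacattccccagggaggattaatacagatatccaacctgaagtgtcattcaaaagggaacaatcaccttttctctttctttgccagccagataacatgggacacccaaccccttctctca
Ace: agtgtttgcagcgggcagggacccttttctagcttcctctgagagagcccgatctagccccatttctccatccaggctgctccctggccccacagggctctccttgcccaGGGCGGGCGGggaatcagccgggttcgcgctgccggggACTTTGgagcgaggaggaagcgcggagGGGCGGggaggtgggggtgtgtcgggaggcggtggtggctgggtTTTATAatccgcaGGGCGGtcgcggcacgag
Mep1a: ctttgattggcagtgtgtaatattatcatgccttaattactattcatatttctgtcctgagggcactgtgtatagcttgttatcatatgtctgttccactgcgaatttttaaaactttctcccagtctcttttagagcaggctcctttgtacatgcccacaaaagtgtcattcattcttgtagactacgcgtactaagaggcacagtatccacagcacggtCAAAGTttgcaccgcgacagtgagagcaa

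None of these 6 patterns was in all 4 windows of the called members. The Anpep window, 72.8% G and C, held 3 GC boxes, at 28, 43 and 63 bases before the start, and the Ace window (67.2%) held 4, the 2 farthest from the start sharing bases. The Enpep window (52.4%, the median of all promoters) held a TATA box match in reverse at 47 bases and the Ace window one at 26 bases. In Dpp4 (43.6%) a TATA box match lay far from the start, at 222 bases, with the letters TGTTCT in reverse at 198 bases. Mep1a (41.6%) held CAAAGT at 24 bases, a pattern also found, in reverse, in Ace at 97 bases. No GTTAAT or TTTATG was in these 5 windows. Over 32817 such promoter windows, GGGCGG was found in 32.7%, TGTTCT in 16.1%, CAAAGT in 12.6%, TATAAA in 12.4%, TTTATG in 10.8% and GTTAAT in 6.44%. A match is a run of letters and not a measured binding site.

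The enzymes also varied among the wild-type arrays. Wild-type array 3 had the highest signal of its group for 7 of the 14 probe sets, those of Anpep, Enpep, Xpnpep2, both of Ace and 2 of Dpp4. Array 1 was highest for 5 and array 2 for 2, and array 3 was lowest for 3. The share over all probe sets was not determined, so these counts are not read as particular to the peptidases. On wild-type array 3, the lipid carrier genes Apoa4 (3120 against 587 and 253) and Apoc3 (575 against 182 and 193) and the lactase gene Lct (315 against 59.8 and 41.9) were higher than on the other wild-type arrays. These belong to a list of 10 small-intestinal genes of which 9 were measured. Of the rest of the list, Rbp2 and Mttp were also highest on that array, and Fabp2 and Fabp6 were in between. Slc5a1 (3232 against 3902 and 3620) and Slc10a2 (789 against 1557 and 1310) were lowest there. On average over that list the log2 signal came to 9.35, 9.35 and 10.18 in wild type, against 10.24, 10.36 and 10.24 in NHE3-deficient colon, with p = 0.1 by the exact permutation test (two-sided). Its summed signal ran from 27995 to 33167 and from 28421 to 34636, most of it from Fabp2, a fatty acid carrier at 20963 to 24648 and 15502 to 21653 that was not called (-0.30). Of its 9 genes 2 were called higher, the retinol carrier Rbp2 (1.75) and the sodium-glucose transporter Slc5a1 (0.76), and 0 lower by limma (4 higher and 1 lower at an unadjusted p under 0.05), while Lct was not called (-0.22). The part of this pattern in the peptidase values was not tested. Without wild-type array 3 the log2 fold change was 3.36 for Anpep and 2.06 for Enpep, larger than with it. By the brightest probe sets it was also larger for Ace (1.15), Mme (1.00), Dpp4 (0.50) and Xpnpep2 (0.45). For Mep1b (0.57) and Mep1a (0.10) it was smaller. Why these values moved was not tested.

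Villin, the actin bundler of the microvillus core encoded by Vil1, was at 12213 ± 895 in wild type and 16208 ± 584 in NHE3-deficient colon (SD, n = 3 each) and was called higher (0.41, adjusted p = 0.0203). The 5 called peptidases were therefore also set against Vil1 on the same array, a comparison chosen after the values were seen. Relative to Vil1 the shift was 2.67 for Anpep and 1.36 for Enpep, with no overlap between groups (exact permutation test, two-sided p = 0.1 for each). It was 0.54 for Ace (p = 0.2), 0.17 for Mep1b (p = 0.2) and 0.08 for Dpp4 (p = 0.5 by the same exact test), with overlapping groups. Adjusted over these 5 tests the p-values were 0.25, and 0.5 for Dpp4. Only for Anpep and Enpep, of these 5, did the ratio to Vil1 separate the genotypes. Vil1 was the only 1 of 8 epithelial markers called higher, and its own rise makes each shift smaller than the gene's log2 fold change. With 3 against 3 arrays these exact tests could not pass for any gene. When scaled to all the epithelial markers, Ace (0.87) and Mep1b (0.50) stayed called and Dpp4 (0.41) did not.

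Other peptidases did not move as a body. Of 18 further surface and secreted peptidases with a probe set, 8 were below the filter. Of the 10 tested, 2 were higher and 1 lower, with a median log2 fold change of -0.05. Naaladl1, a brush border peptidase related to glutamate carboxypeptidase, read 1164, 844 and 747 in wild type and 2303, 1762 and 3141 in NHE3-deficient colon (1.34, SE 0.21, adjusted p = 0.00283). Ggt6, of the gamma-glutamyl transferase family to which Ggt1 belongs, rose less (0.40, SE 0.11, adjusted p = 0.0429). Ece1, the enzyme that makes mature endothelin, fell by 0.97 on the log2 scale (SE 0.15, adjusted p = 0.00300). Dpep1, a renal and intestinal dipeptidase, was not called (0.15, SE 0.15).

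Inside the cell, 22 of 23 genes of cytosolic and lysosomal peptidases passed the filter and were tested, enzymes that finish the digestion of absorbed small peptides or of the cell's own proteins. By limma 0 were higher and 0 lower, with a median of -0.04, and at an unadjusted p under 0.05 there were 4 higher and 1 lower. Their largest log2 fold changes, for Thop1 (0.52, adjusted p = 0.106) and Lta4h (0.50, adjusted p = 0.0515), did not pass. The prolidase Pepd had -0.26 and the dipeptidase Cndp2 -0.20, neither called. Of 6 brush border disaccharidases and phosphatases with a probe set, Akp3 was below the filter, at 4.2 to 64.1 against 62.1 to 185.5. Of the 5 tested 0 were called by limma (1 higher and 0 lower at an unadjusted p under 0.05), with Mgam, maltase-glucoamylase, at -0.04 (SE 0.11) and Alpi, intestinal alkaline phosphatase, at 0.39 (SE 0.17, adjusted p = 0.169).

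The transporters that take up the products gave 4 higher and 0 lower by limma of 16 tested, out of 17 with a probe set, with a median of 0.30, and 8 higher and 1 lower at an unadjusted p under 0.05. Slc7a9, which with Slc3a1 exchanges basic amino acids and cystine, read 303, 162 and 338 in wild type and 4466, 3571 and 4977 in NHE3-deficient colon (3.91, SE 0.22). Slc6a19, a sodium-coupled carrier of neutral amino acids that sits with aminopeptidase N in the brush border, went from 131 ± 30.7 to 1514 ± 258 (SD, n = 3 each; 3.25, SE 0.19). Slc36a1, a proton-coupled amino acid carrier, rose by 2.02 (SE 0.14). The proton-coupled peptide transporter Slc15a1 read 885, 891 and 954 against 1536, 1728 and 2460 (1.01, SE 0.16, adjusted p = 0.00334). Slc3a1 did not pass (0.57, SE 0.20, adjusted p = 0.0889).

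**Figure D3:**
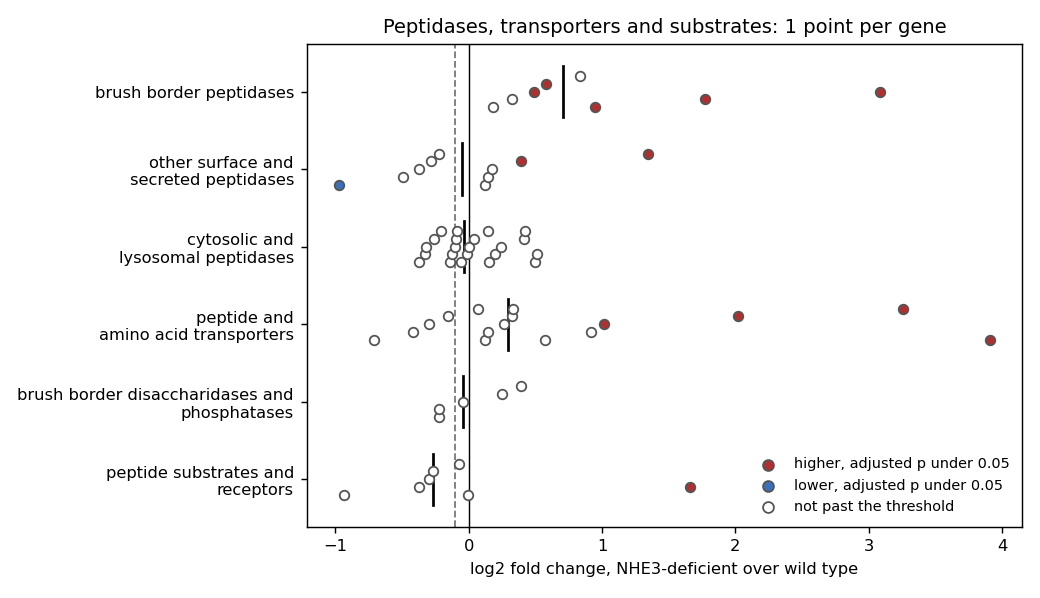
Log2 fold changes, NHE3-deficient over wild type, of the tested genes of 6 lists, 1 point per gene through its brightest probe set, with the list median as a vertical bar and the median of all probe sets as a dashed line. The peptidases (median 0.71) and the transporters (0.30) have points out to 3.08 and 3.91, while the 22 cytosolic and lysosomal peptidases all lie between -0.37 and 0.52.

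Since several of these enzymes occur on other cells of the colon, marker lists were read on the same arrays. Epithelial markers had a mean log2 signal of 14.41 ± 0.08 in wild type and 14.49 ± 0.10 in NHE3-deficient colon (SD, n = 3 each), a difference with p = 0.5 in the two-sided exact permutation test. Of its 8 genes Vil1 was called higher and Krt18 lower. The colon markers Car1, Car4, Slc26a3, Aqp8, Hoxb13 and Muc2 had signals of 2811 or more on every array, and Mptx1 had 1748 or more. Of the 7 colon markers measured, 4 were higher, Car4 (0.93), Slc26a3 (0.72), Aqp8 (0.93) and Hoxb13 (1.54), and 1 lower, Mptx1, a mucosal pentraxin, which read 16112 to 24003 in wild type and 1748 to 2626 in NHE3-deficient colon (-3.28). Their part in the peptidase values was not tested. Endothelial markers, of interest for Ace, had a mean log2 signal of 6.75 ± 0.08 in wild type and 6.60 ± 0.06 in NHE3-deficient colon (SD, n = 3 each). The groups did not overlap (exact permutation test, two-sided p = 0.1), and the shift of -0.15 was -0.05 with medians set equal. Their signals summed to 719.9 to 844.9 and 691.6 to 815.2, 4 of 9 being below the filter and 0 of the other 5 called by limma. T cell markers, of interest for Dpp4, summed to 589.2 to 1469 and 791.2 to 834.4, with 0 of 6 tested genes called.

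Among cells that carry Anpep, monocyte and macrophage markers had 1 of 6 tested genes higher, Cd14 (1.51), and summed to 3611 to 6570 and 5403 to 7845. Cd14 alone read 1291 to 1390 in wild type and 3128 to 5014 in NHE3-deficient colon. The uncalled genes went both ways, with Adgre1 (0.46), Mrc1 (0.44), Csf1r (-0.13), Cd68 (-0.32) and Lyz2 (-0.44). The list's mean log2 signal was 8.10 ± 0.36 and 8.36 ± 0.21 (SD, n = 3 each), with overlapping groups (exact permutation test, two-sided p = 0.4). The neutrophil list had a mean log2 signal of 6.18 ± 0.23 in wild type and 6.78 ± 0.22 in NHE3-deficient colon (SD, n = 3 each). The groups did not overlap (exact permutation test, two-sided p = 0.1). Its signals summed to 287.4 to 459.7 in wild type and 1020 to 3408 in NHE3-deficient colon, where most of the sum came from S100a8. Of its 8 measured genes 6 were below the filter, namely S100a9, Csf3r, Cxcr2, Camp, Mpo and Elane, and 1 of the other 2 was called, the calprotectin subunit S100a8, at 41.2 to 59 against 717.7 to 3034. S100a9, its calprotectin partner, read 28.1 to 41.1 against 50.6 to 146.8, without overlap, and the granulocyte receptor Csf3r 52.9 to 83 against 34.2 to 61.2. The part of S100a8-bearing cells in the Anpep signal was not tested. Fibroblast markers, of interest for Mme, had 0 of 7 called and summed to 3489 to 4431 and 3214 to 3874. In the endothelial, T cell and fibroblast lists 0 genes had an unadjusted limma p under 0.05. Other lists did hold called genes. Among 3 tested adipocyte markers Fabp4 (-2.08) and Adipoq (-1.77) were lower and Cidec (0.97) higher. Of 5 tested exocrine pancreas markers 1 was lower, the colipase gene Clps (-2.36). Of 6 tested B and plasma cell markers 1 was lower, Sdc1 (-0.43), which epithelium also expresses, and 4 were lower and 1 higher at an unadjusted p under 0.05. The part of these cells in the peptidase values was not tested.

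**Figure D4:**
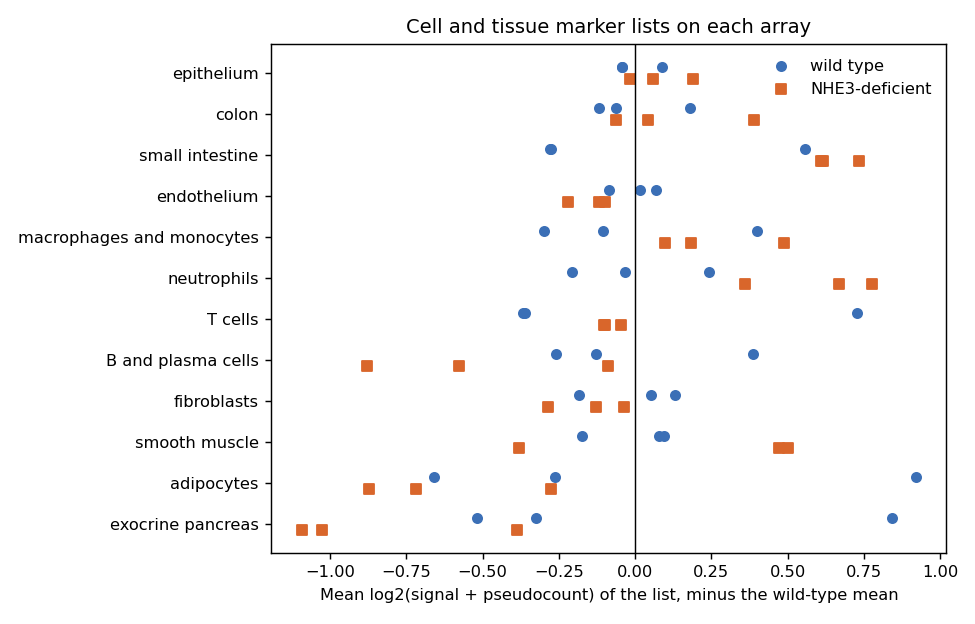
Mean log2 signal of 12 marker lists on each array, minus the wild-type mean of the list, with wild-type arrays as circles and NHE3-deficient arrays as squares. Only the small-intestine, endothelium and neutrophil lists separate the 6 arrays by genotype, and wild-type array 3 lies near the NHE3-deficient arrays for the small-intestine list.

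Anpep and Enpep were called higher in all 16 alternative settings, with log2 fold changes of 2.65 to 3.36 and 1.53 to 2.06. Mep1b was called in 14 of 16, between 0.41 and 0.68, Ace in 9 and Dpp4 in 8. The uncalled members, Mep1a, Mme and Xpnpep2, were called in 0 of their alternative settings. A further fit kept NHE3-deficient array 3, which lacks the Xist signal, as the only NHE3-deficient array. Its log2 fold changes were 3.10 for Anpep, 1.90 for Enpep, 1.18 for Ace, 0.49 for Mep1b and 0.47 for Dpp4. That fit assumes that the single array varies as the wild types do. The number of member probe sets called higher was 3 without wild-type array 2, NHE3-deficient array 2 or NHE3-deficient array 3, and 2 without a mean-variance trend. With the mean of the epithelial markers set equal on all arrays, Anpep (3.00), Enpep (1.70), Ace (0.87) and Mep1b (0.50) were called and Dpp4 (0.41, adjusted p = 0.116) was not.

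**Figure D5:**
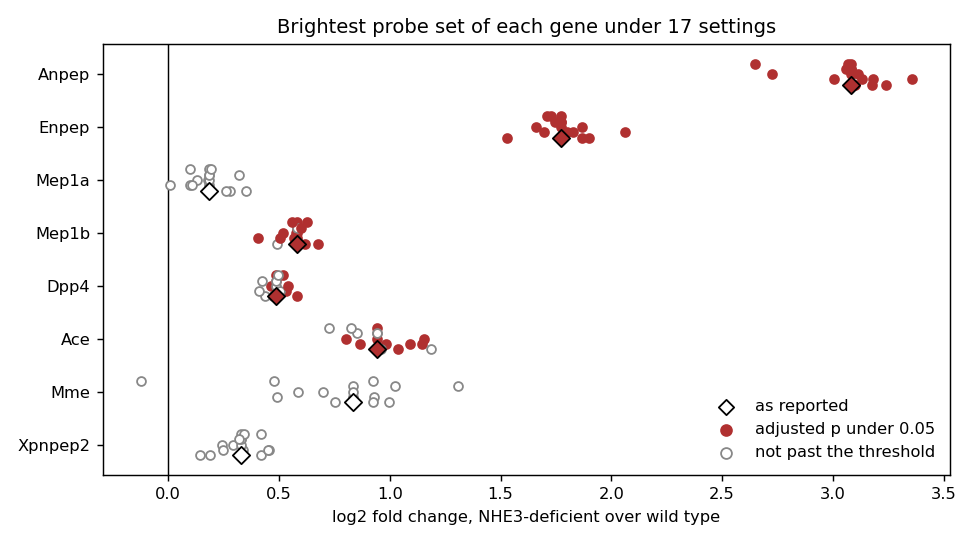
Log2 fold changes of the brightest probe set of each of the 8 genes, as reported (diamonds) and under 16 alternative settings (circles), filled where the adjusted p was under 0.05. Anpep and Enpep are filled throughout, Ace and Dpp4 are a mixture, and Mep1a, Mme and Xpnpep2 are open throughout.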

How the data were processed

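The authors deposited intensity values on a linear scale, produced with GCOS per the submitters' processing notes. Settings and version are not given in the sources used here. From the values each array was scaled by the authors to a mean of 500 after trimming 2% from each end. Analysis used log2(signal + 31.4), where 31.4 is the 25th percentile over all arrays. This scale understates fold changes of dim probe sets. Of 45101 probe sets, 64 array controls and those below the 40th percentile of mean log2 signal were left out. The remaining 27022 were fitted with limma 3.58.1 in R 4.3.3 (genotype as the only term, mean-variance trend, two-sided), with Benjamini-Hochberg adjustment over all of them.

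The platform annotation names 1 gene for 34958 probe sets, several for 932 and none for 9211, and 34754 of the 34958 matched a RefSeq table for current symbols. In lists the probe set with the highest mean log2 signal stands for its gene. The named genes are every member, up to 4 called genes per related list and direction with the largest changes, the 5 genes nearest to the most changed member, and Slc9a3. Others named in the lists (uncalled genes and markers) were chosen after their values were seen. Members and lists were chosen with earlier results of these data known. Promoters came from RefSeq, for 8 of the 9 genes (not Mep1b). The fit was tested on simulated data, with 50 changed probe sets of each size among 27022. It recovered 0% of log2 changes of 0.5, 24% of 1, 70% of 2 and 84% of 3. Only 90 probe sets were called there, which makes the adjusted threshold stricter than in these data. Small differences that were not called may thus have been missed. The number of arrays limits the precision. Alternatives covered the pseudocount, filter, scaling, trend, replicate block and arrays left out.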

Additional observations from a re-analysis of the deposited data

How the results depend on the processing

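On the count of member probe sets called higher, 5 as reported, leaving out 1 array gave 3 to 5. The count was 2 without a mean-variance trend. It was 4 without a filter or with the scaling to epithelial markers, which was chosen after seeing the data, and 5 with either other pseudocount, the stricter filter, medians set equal or quantile normalization. No member probe set was lower in any of these limma fits, also at an unadjusted p under 0.05. Among the uncalled probe sets, reversals came for the Dpp4 probe set with the lowest value (-0.12 as reported) with quantile normalization (0.0398) and NHE3-deficient array 3 alone (0.18), and without 1 array in turn it ran from -0.27 to 0.10. The Dpp4 probe set at -0.03 reversed with medians set equal (0.0651), quantile normalization (0.10) and NHE3-deficient array 3 alone (0.10), and ran from -0.14 to 0.15 without 1 array. The brighter Mme probe set reversed with NHE3-deficient array 3 alone (-0.12). The cause was not tested.

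The mean shifts of the marker lists reversed with quantile normalization for epithelium (-0.0759), colon (-0.0310) and T cells (0.00476), and for T cells with medians set equal (0.0124). With 1 array left out the colon list ran from -0.0109 to 0.216 and the T cell list from -0.265 to 0.283. None could pass, since the smallest exact p is 0.1 with 6 arrays. Over all probe sets, 1342 were higher and 1685 lower as reported, 1597 and 839 with medians set equal, and 933 and 1819 with the scaling to epithelial markers. Without the trend they were 511 and 558. Leaving out 1 array gave 839 to 1211 higher and 774 to 1385 lower.

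With the replicate block 4 member probe sets were higher, Dpp4 not being called (adjusted p = 0.0584). The deviations of same-numbered arrays correlated at 0.03, -0.04 and 0.003, so no pairing was shown, though 3 arrays per group cannot exclude one. Dim probe sets (both of Mme, 3 of Dpp4, 1 of Ace) give wide intervals, and detection calls were not analysed here.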

Other observations

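Peptides that these enzymes are known to cut, and their receptors, were also read. Of 7 tested genes 1 was higher and 0 lower by limma (1 lower at an unadjusted p under 0.05). Pyy, peptide YY of colonic L cells, which Dpp4 trims to its shorter form, read 3089, 3542 and 2781 in wild type and 8842, 9975 and 11112 in NHE3-deficient colon. The groups did not overlap (1.66 on the log2 scale, SE 0.12, adjusted p = 2.42e-05). Gcg, which encodes the glucagon-like peptides of the same cell type, had -0.01 (SE 0.17, adjusted p = 0.982). Agt, the angiotensin precursor and source of substrates for Ace and Enpep, had -0.93 and did not pass (SE 0.27, adjusted p = 0.0513). The tachykinin gene Tac1, whose products neprilysin cuts, had -0.29 (SE 0.19, adjusted p = 0.333). The angiotensin receptor genes Agtr1a, Agtr1b and Agtr2 were below the filter.

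The genes outside the lists whose profile over the 6 arrays lay nearest to that of Anpep, by Euclidean distance of log2 signals about their mean among 12553 genes, were Ada, St8sia5, 2010106E10Rik, Ltf and Plat, at distances of 0.98 to 1.20. Ada, adenosine deaminase, was nearest, with 489.7, 434 and 748 in wild type and 5011, 4823 and 4383 in NHE3-deficient colon. Plat encodes tissue plasminogen activator, Ltf lactoferrin and St8sia5 a sialyltransferase. Pearson's r with Anpep was 0.96 to 0.97 over 6 arrays, given as a description: the points share a genotype difference, which any gene with a like fold change would follow.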
